A study of Mus musculus with 18 samples.

Results

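The genes described here are the cyclins, cyclin-dependent kinases (CDKs) and CDK inhibitors that run the G1 phase of the cell cycle. They are the D-type cyclins Ccnd1, Ccnd2 and Ccnd3 with the kinases Cdk4 and Cdk6, the E-type cyclins Ccne1 and Ccne2 with the kinase Cdk2, and the inhibitors Cdkn1b and Cdkn1c. Each was taken by its symbol, through the probe set with the highest mean over the 18 arrays among those naming that gene alone. All 10 genes were found, of 19935 genes measured. Only Cdkn1b had a second probe set. Cdkn1a, the third member of the same inhibitor family, was not analysed here.

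The arrays measured total RNA of mouse embryonic stem cells, grown in serum with leukemia inhibitory factor. The R1E line, whose p53 genotype the labels do not give, was mock treated (n = 4 arrays), treated with 0.5 µM adriamycin for 8 hours (n = 4), or given 25 J/m² of ultraviolet light, with 8 hours stated for it as well (n = 4). Embryonic stem cells of genotype p53-/- on a 129X1 x 129S1 background were untreated (n = 3) or given 0.5 µM adriamycin for 8 hours (n = 3). Adriamycin (doxorubicin) traps topoisomerase on DNA and so causes strand breaks, and ultraviolet light (UV) leaves bulky lesions that block polymerases. All levels below are deposited log2 intensities, so a difference of 1 is a 2-fold change. The study asked which expression changes after adriamycin depend on p53.

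In G1, D-type cyclins bind CDK4 or CDK6 and begin the phosphorylation of the retinoblastoma protein RB, which otherwise holds the E2F transcription factors in check. Cyclin E with CDK2 completes that phosphorylation and starts S phase. The CIP/KIP inhibitors, p27 (Cdkn1b) and p57 (Cdkn1c) among them, bind and block cyclin-CDK2 complexes, while the INK4 inhibitors act on CDK4 and CDK6. Mouse embryonic stem cells are known for a short G1, with little cyclin D activity and cyclin E-CDK2 activity through much of the cycle.

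Array medians ran from 5.30 to 5.61, and precision is limited by how few arrays there are. No label states that replicates were grown apart, so the p-values reflect array-to-array spread that may be technical only. All 11 markers of pluripotent stem cells lay above the median of all genes in every group. The p53-/- arrays spread more (median standard error of a change 0.140 against 0.063 in R1E), and their untreated replicate 3 was the array that correlated least with its own group (mean r = 0.9847, against 0.9890 and 0.9909 for the other untreated arrays). Without that array the p53-/- comparison called 442 genes in place of 19. Markers of other cell types, each read against the median of all genes of its own set, lay above that median more often in untreated p53-/- cells than in R1E mock. The counts were 9 of 11 against 4 of 11 for fibroblasts, 6 of 6 against 3 of 6 for primitive endoderm and 5 of 6 against 3 of 6 for trophectoderm. In the p53-/- set the primitive endoderm markers had mean levels of 7.64 to 7.78 on untreated arrays and 7.21 to 7.40 after adriamycin. Their median change was -0.45, beside -0.22 for the fibroblast and 0.18 for the trophectoderm markers. None of these markers was called there, where 0.0953% of all genes were. The part of cells of these other types in the results was not tested. The probe for Trp53 was not analysed here, so the p53-/- label rests on the submitters' description.

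Adriamycin lowered most of the G1 genes in R1E cells. Of the 10 genes, 8 fell, Cdkn1c rose and Cdk4 did not pass the test (limma, Benjamini-Hochberg adjusted p below 0.05 over all genes). Among all genes 47.7% were called in either direction, 25.6% lower and 22.1% higher. The groups did not overlap for 9 of the 10 genes, against 45.6% of all genes. The median change of the 10 genes was -0.90, against -0.018 over all genes. UV lowered 6 of the 10 and raised none, where 43.9% of all genes were called, 21.2% lower and 22.6% higher. The UV and mock groups did not overlap for 6 of the 10, against 40.7% of all genes. Their median change after UV was -0.18, against 0.032 over all genes. Adriamycin and UV share the mock arrays, so these counts are not independent of each other. The 10 genes and the pathway lists below were chosen with earlier results of these data known. Their counts beside the shares of all genes are therefore descriptions, not tests. The shares of all genes, here and below, also include dim genes. The 10 genes had group means above the median of all genes, except Ccne2 after adriamycin in R1E. With dim genes left out, most remaining genes were called after adriamycin in R1E, a larger share than among all genes. Whether the 10 genes were called more often than genes of like level was not tested. Markers of pluripotent stem cells fell as well, 10 of 11 after adriamycin and 7 of 11 after UV, and their part in the result was not tested. Their mean level was 10.95 to 11.01 on mock arrays, 10.31 to 10.40 after adriamycin and 10.72 to 10.78 after UV.

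**Figure D1:**
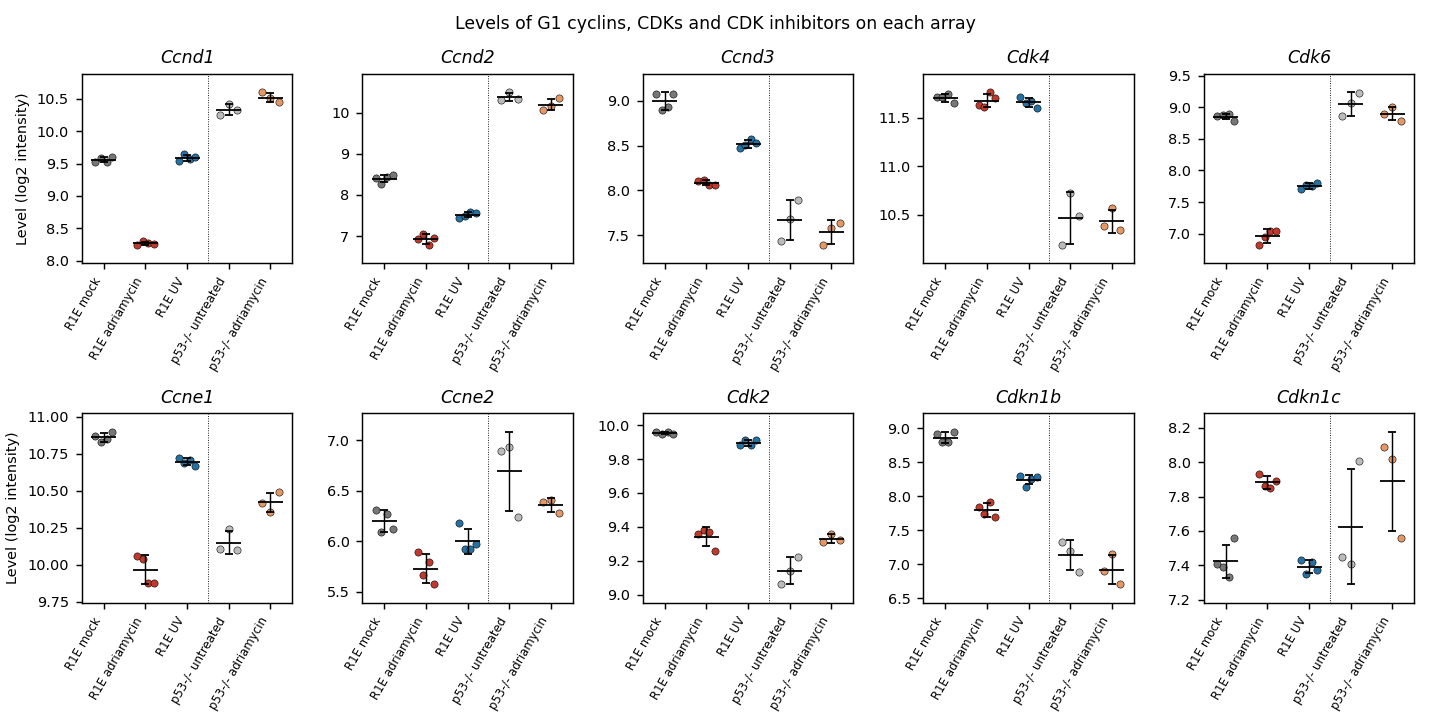
Level of each G1 gene on every array, as deposited log2 intensity on the vertical axis, with points for arrays, horizontal bars for group means and error bars for the SD (n = 4 in R1E groups, n = 3 in p53-/- groups). The dotted line separates the sets, which were normalized apart, so levels compare only within a set; Cdk6 runs from 8.79 to 8.89 in R1E mock and from 6.82 to 7.05 after adriamycin.

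The R1E groups fell into 4 orders, read from which pairwise tests passed. For 6 genes, Ccnd2, Ccnd3, Cdk6, Ccne1, Ccne2 and Cdkn1b, the level after adriamycin was below that after UV, and that after UV was below mock. This order held for 5.44% of all genes. For Ccne1 and Ccne2 the UV calls it rests on were lost in some alternatives, as given below. For Ccnd1 and Cdk2 the adriamycin level was below the others, while the test of UV against mock did not pass (7.22% of all genes). Cdkn1c was higher after adriamycin, and UV against mock did not pass (4.24% of all genes). For Cdk4 no pair of groups passed the test.

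Among the D-type cyclins, Ccnd1 separated adriamycin from UV most widely. Cyclin D1 is the mitogen-responsive partner of CDK4 and CDK6. Its level was 9.52, 9.59, 9.53 and 9.60 on the mock arrays, 8.24, 8.30, 8.27 and 8.25 after adriamycin, and 9.54, 9.65, 9.57 and 9.60 after UV. Every adriamycin array lay far below every other R1E array, and the UV arrays overlapped the mock arrays. The change after adriamycin was -1.30 ± 0.05 (standard error, n = 4 against 4), a 2.46-fold fall with limma adjusted p = 6.14e-13, and 2.98% of all genes changed by more. After UV the change was 0.03, with a 95% interval from -0.07 to 0.12, which leaves out changes as large as that after adriamycin. Compared directly, the level after adriamycin was 2.5-fold below that after UV (limma adjusted p = 5.8e-12), a difference exceeded in size by 0.386% of all genes. In that direct comparison 9 of the 10 G1 genes were called, 8 of them lower after adriamycin, against 42% of all genes called, 22.2% lower and 19.8% higher. The adriamycin and UV groups did not overlap for 9 of the 10, against 38.3% of all genes.

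Ccnd2, encoding cyclin D2, fell after both treatments. Its level was 8.40, 8.27, 8.43 and 8.48 in mock, 6.92, 7.05, 6.78 and 6.96 after adriamycin, and 7.45, 7.48, 7.59 and 7.55 after UV. The groups were separate from each other, with UV between the others. The changes were -1.47 ± 0.06 after adriamycin and -0.88 ± 0.06 after UV (limma adjusted p = 8.42e-12 and 1.01e-08), or 2.76-fold and 1.84-fold falls. Ccnd3, encoding cyclin D3, showed the same order with smaller steps. It lay between 8.90 and 9.08 in mock, between 8.47 and 8.57 after UV, and between 8.06 and 8.12 after adriamycin. Its changes were -0.91 ± 0.05 and -0.48 ± 0.05 after adriamycin and UV (limma adjusted p = 3.25e-10 and 1.32e-06).

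The D-cyclin kinases moved apart. Cdk6 had the largest fall of the 10 genes after either treatment. It read 8.86, 8.87, 8.89 and 8.79 in mock, 6.82, 6.95, 7.05 and 7.05 after adriamycin, and 7.70, 7.77, 7.75 and 7.80 after UV. No array of one group reached the range of another. The change was -1.89 ± 0.06 after adriamycin, a 3.70-fold fall, and -1.10 ± 0.06 after UV, a 2.15-fold fall (limma adjusted p = 9.7e-14 and 1.62e-10). Only 1.02% of all genes changed by more after adriamycin and 1.87% after UV. Cdk4 read 11.71, 11.71, 11.74 and 11.65 in mock, 11.63, 11.61, 11.76 and 11.70 after adriamycin, and 11.71, 11.65, 11.67 and 11.60 after UV. These ranges overlapped throughout. The change of Cdk4 was -0.02 after adriamycin (95% interval from -0.13 to 0.08) and -0.04 after UV (from -0.15 to 0.06). With each array centred on its median the adriamycin change of Cdk4 was -0.15 and passed the test, and with quantile normalization it was 0.05 and did not.

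The promoters of these kinases are shown because their genes behaved so differently in the same cells. The RefSeq promoter table of build GRCm38.p6, which gives 250 bases before to 50 bases after a start site, matched 6 of the 10 genes with 7 start sites. It held no entry for Ccnd1, Ccnd2, Ccne2 or Cdkn1c. Capitals mark the E-box, CACGTG on either strand, the element that MYC with MAX binds. Cdk4 (chr10:127063285-127063584, plus strand) held 4 of them and Cdk6 (chr5:3343643-3343942, plus strand) held 1. The Cdk6 window lies inside the RefSeq gene, which begins at base 3341004, and no window at that beginning was available. The windows of the 2 kinases are thus not fully alike in place. An E-box stood in 7.15% of the 32851 promoters of the table, and 8 of those promoters (0.0244%) held 4 or more. The E-box was chosen for the search after the sequences were seen, and a match is not a bound site.
Cdk4: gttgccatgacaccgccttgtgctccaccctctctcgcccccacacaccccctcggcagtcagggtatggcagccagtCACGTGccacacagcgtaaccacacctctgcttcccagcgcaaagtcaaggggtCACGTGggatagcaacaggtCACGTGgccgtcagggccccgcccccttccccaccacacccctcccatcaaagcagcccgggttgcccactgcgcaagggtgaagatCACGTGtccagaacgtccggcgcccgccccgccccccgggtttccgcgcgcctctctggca
Cdk6: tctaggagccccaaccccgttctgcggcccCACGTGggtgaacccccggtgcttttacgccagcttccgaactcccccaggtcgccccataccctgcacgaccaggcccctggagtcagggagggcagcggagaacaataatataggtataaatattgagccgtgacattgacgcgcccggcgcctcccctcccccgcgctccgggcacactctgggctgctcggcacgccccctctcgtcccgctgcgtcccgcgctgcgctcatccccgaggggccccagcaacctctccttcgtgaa
For the MYC genes themselves, Mycn fell by 1.83 ± 0.05 and Myc by 0.82 ± 0.05 on the log2 scale after adriamycin in R1E (limma adjusted p = 3.2e-14 and 6.08e-10). After UV, Mycn had a change of -0.63 and Myc of 0.16.

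**Figure D2:**
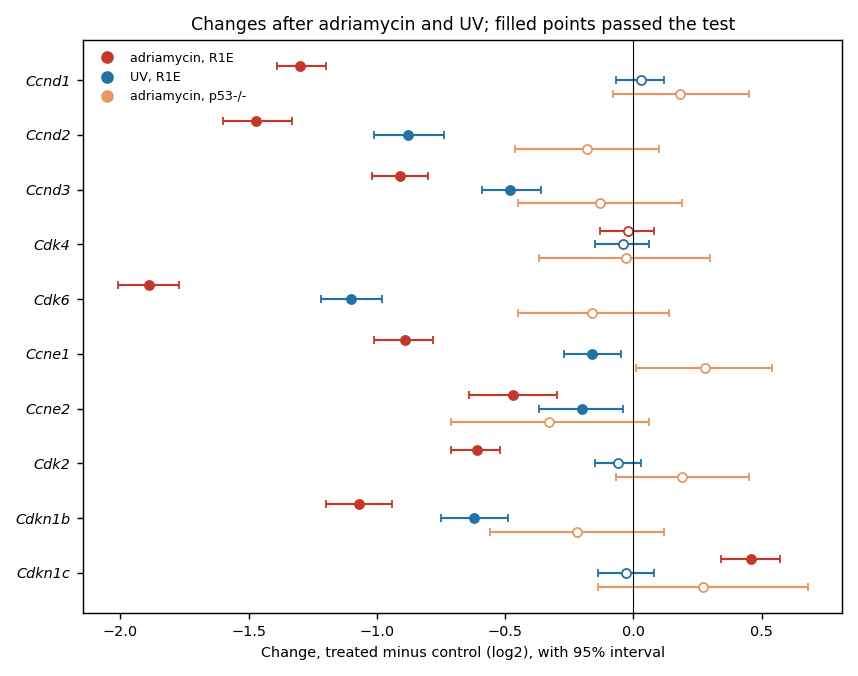
Change of each G1 gene (horizontal axis, treated minus control, log2) after adriamycin in R1E, UV in R1E and adriamycin in p53-/- cells, with 95% intervals from the limma fits; filled points passed the test. The adriamycin points in R1E run from -1.89 for Cdk6 to 0.46 for Cdkn1c, and the intervals in p53-/- cells are wider.

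The cyclin E and CDK2 genes fell after adriamycin and moved little after UV. Ccne1, encoding cyclin E1, read 10.87, 10.83, 10.85 and 10.90 in mock, 10.06, 10.04, 9.88 and 9.88 after adriamycin, and 10.72, 10.69, 10.71 and 10.67 after UV. The groups did not overlap, but UV lay close under mock. The change was -0.89 ± 0.05 after adriamycin, a 1.86-fold fall, and -0.16 ± 0.05 after UV, a 1.12-fold fall (limma adjusted p = 3.72e-10 and 0.0183). The UV call on Ccne1 ended with quantile normalization, at -0.06 with adjusted p = 0.395.

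Cdk2, the kinase partner of cyclin E, had the tightest mock arrays, at 9.96, 9.95, 9.96 and 9.95. It read 9.36, 9.38, 9.37 and 9.26 after adriamycin and 9.88, 9.91, 9.88 and 9.91 after UV. The fall after adriamycin was 1.53-fold (-0.61 ± 0.04, limma adjusted p = 5.63e-09). The UV arrays all lay below the mock arrays, yet the change of -0.06 did not pass the test (95% interval from -0.15 to 0.03). With each array centred on its median the UV change was -0.14 and passed. Ccne2 encodes cyclin E2, and its mean after adriamycin lay below the median of all genes. It ranged from 6.09 to 6.31 in mock, from 5.57 to 5.89 after adriamycin and from 5.92 to 6.18 after UV. The change was -0.47 ± 0.08 after adriamycin (limma adjusted p = 9.75e-05) and -0.20 ± 0.08 after UV (adjusted p = 0.0479), where the groups overlapped. The UV call on Ccne2 was lost without any 1 of 6 single arrays, the highest adjusted p being 0.142.

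The Cdk2 promoter (chr10:128705002-128705301, minus strand) is shown because, of the 7 start sites matched, it alone held letters of an E2F element. Capitals mark any of 4 forms of the element through which E2F factors act, on either strand. The Cdk2 window held 3 such sites, of the forms TTCCCGC and TTGCCGC only. The forms searched were TTCGCGC as the first, TTGGCGC as the second, TTCCCGC as the third and TTGCCGC as the fourth. Such letters stood in 9.57% of all promoters of the table. The Ccne1 promoter window held none, which says only that these letters are not in that window.
Cdk2: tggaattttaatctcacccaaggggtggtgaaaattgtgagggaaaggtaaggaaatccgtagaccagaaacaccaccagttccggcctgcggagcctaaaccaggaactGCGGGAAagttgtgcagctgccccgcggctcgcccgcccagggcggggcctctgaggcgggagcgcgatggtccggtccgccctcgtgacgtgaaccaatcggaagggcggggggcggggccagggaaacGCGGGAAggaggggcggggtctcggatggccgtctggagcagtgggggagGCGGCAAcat
The levels of Ccne1 and Cdk2 had a Pearson correlation of 0.99 over the 12 R1E arrays, and of 0.48 once the group means were removed. That is a description over arrays that share 3 treatment groups.

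The inhibitors went in opposite directions after adriamycin. Cdkn1b, encoding p27, read 8.91, 8.80, 8.80 and 8.95 in mock, 7.84, 7.74, 7.92 and 7.69 after adriamycin, and 8.30, 8.14, 8.26 and 8.28 after UV. The groups were separate, in the same order as for Ccnd2 and Cdk6. Its change was -1.07 ± 0.06 after adriamycin, a 2.10-fold fall, and -0.62 ± 0.06 after UV, a 1.54-fold fall (limma adjusted p = 2.69e-10 and 3.26e-07). The second, dimmer probe set of Cdkn1b gave -1.14 and -0.82. Cdkn1c, encoding p57 and known as an imprinted gene, read 7.41, 7.39, 7.33 and 7.56 in mock, 7.93, 7.86, 7.85 and 7.89 after adriamycin, and 7.43, 7.35, 7.42 and 7.37 after UV. Every adriamycin array exceeded every other R1E array. The rise was 1.37-fold (0.46 ± 0.05, limma adjusted p = 1.76e-06), and the change after UV was -0.03 (95% interval from -0.14 to 0.08).

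Gene span was set beside the UV changes, because genes above 100 kb were called lower after UV in 48.1% of cases and genes under 10 kb in 6.57%. Cdk6 spans 190.0 kb in the GRCm38.p6 RefSeq table and had the largest UV fall. Ccnd3 spans 94.6 kb and Ccnd2 27.0 kb, with UV changes of -0.48 and -0.88. Shorter genes were also called lower after UV, namely Ccne2 at 14.3 kb (-0.20), Ccne1 at 9.5 kb (-0.16) and Cdkn1b at 5.1 kb (-0.62), while Ccnd1 at 9.9 kb, Cdk2 at 7.1 kb, Cdk4 at 3.8 kb and Cdkn1c at 2.7 kb were not called. After adriamycin in R1E, 26.2% of genes above 100 kb and 19.5% of genes under 10 kb were called lower. The part of span in these changes was not tested.

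In p53-/- cells none of the 10 genes passed the test after adriamycin, where 0.0953% of all genes did (19 of 19935, limma), 0.0803% lower and 0.015% higher. At an unadjusted p below 0.05 limma gave 1 of the 10, Ccne1, against 11.6% of all genes. The median change of the 10 genes was -0.08, against 0.058 over all genes. The groups did not overlap for 3 of the 10 genes, Ccnd1, Ccne1 and Cdk2, each higher after adriamycin, against 17.5% of all genes. Ccnd1 read 10.25, 10.42 and 10.32 untreated and 10.60, 10.51 and 10.45 after adriamycin, a change of 0.18 (95% interval from -0.08 to 0.45, limma adjusted p = 0.593). Ccne1 read 10.11, 10.24 and 10.10 untreated and 10.42, 10.36 and 10.49 treated, a change of 0.28 (95% interval from 0.01 to 0.54, limma adjusted p = 0.412). The intervals of these genes leave out falls of the size seen in R1E. Cdk6 read 8.86, 9.06 and 9.23 untreated and 8.90, 9.0 and 8.79 treated, with overlapping groups and a change of -0.16 (95% interval from -0.45 to 0.14). Cdk2 read 9.06, 9.14 and 9.22 untreated and 9.31, 9.36 and 9.32 treated, a change of 0.19 (from -0.07 to 0.45). For Ccnd2, Ccnd3, Cdk4 and Cdkn1b the groups overlapped, with changes of -0.18, -0.13, -0.03 and -0.22.

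Single p53-/- arrays moved the values of Ccne2 and Cdkn1c. Ccne2 read 6.90, 6.94 and 6.24 untreated and 6.39, 6.41 and 6.28 after adriamycin. The third untreated array lay just below the treated arrays and the others lay above them, and the change was -0.33 (limma adjusted p = 0.504). Without that array it was -0.55 ± 0.12 and passed the test (limma adjusted p = 0.0397), where 2.22% of all genes did. Cdkn1c read 7.45, 7.41 and 8.01 untreated and 8.09, 8.02 and 7.56 treated, so that 1 array of each group lay in the range of the other group. Its change was 0.27, 0.46 without the third untreated array and 0.43 without the third adriamycin array (limma adjusted p = 0.621, 0.129 and 0.522).

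The difference of the adriamycin changes, R1E minus p53-/-, was tested with each set's own spread. It was called for 7 of the 10 genes, all with a lower change in R1E, against 21.7% of all genes called, 11.4% lower and 10.4% higher. The differences were -1.73 ± 0.15 for Cdk6, -1.48 ± 0.13 for Ccnd1, -1.28 ± 0.14 for Ccnd2 and -1.17 ± 0.13 for Ccne1 (limma estimates, adjusted p = 2.83e-07, 5.98e-07, 3.11e-06 and 4.89e-06). Smaller differences were called for Cdkn1b (-0.85), Cdk2 (-0.80) and Ccnd3 (-0.78). The second probe set of Cdkn1b gave -0.64, which did not pass (adjusted p = 0.138). For Ccne2 the difference was -0.14 (95% interval from -0.55 to 0.27) and for Cdkn1c 0.19 (from -0.23 to 0.61), and neither passed the test. Without p53-/- untreated replicate 3 the same 7 genes were called. In this difference the effects of genotype, line, array set and software cannot be told apart.

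**Figure D3:**
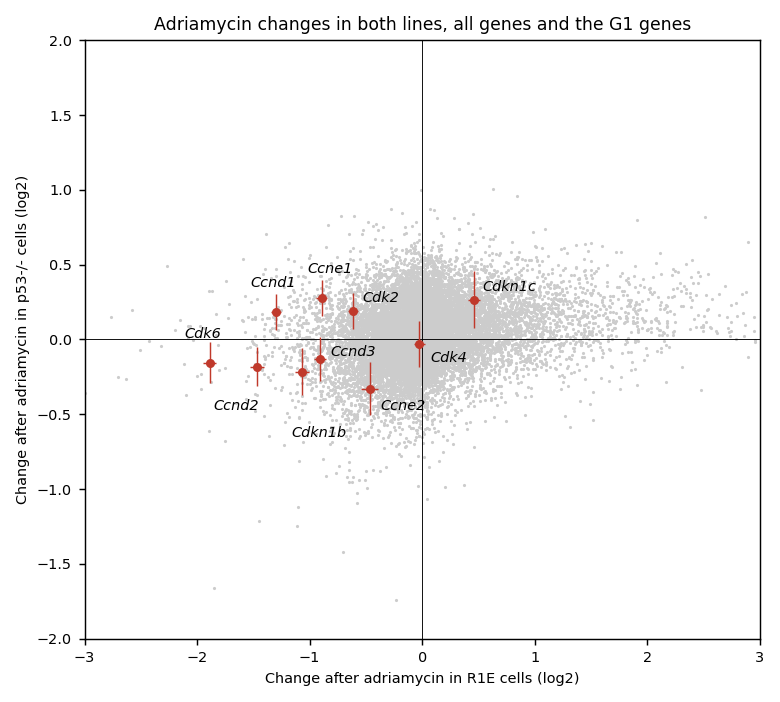
Change after adriamycin in R1E (horizontal) against that in p53-/- cells (vertical), both log2, for all 19935 genes in grey (13 lie outside the axes) and the 10 G1 genes in red with standard errors. Of the G1 genes, 8 lie left of 0 by 0.47 or more in R1E, while all 10 lie between -0.33 and 0.28 in p53-/- cells.

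Among the factors on which the G1 kinases act, the largest changes after adriamycin in R1E were rises of the pocket protein genes Rbl2 and Rb1. Of 19 RB, E2F and DREAM factors, 5 rose and 11 fell after adriamycin, with a median change of -0.16. Over all genes 22.1% were called higher and 25.6% lower, with a median of -0.018. The counts were 3 higher and 13 lower with each array centred on its median, and 5 and 10 with quantile normalization. Rbl2, encoding the pocket protein p130, rose 3.99-fold (2.00 ± 0.07) and Rb1, encoding RB itself, rose 3.82-fold (1.93 ± 0.06, limma adjusted p = 4.78e-13 and 1.74e-13). Their relative Rbl1, encoding p107, had a change of -0.11. Among the activator E2F genes, E2f2 had a change of -0.85 and E2f3 of -0.51, while E2f1 rose 1.30-fold. E2f8, a repressor E2F, and Mybl2, a partner of the DREAM subunits, had changes of -0.65 and -0.58. After UV 4 of the 19 rose and 9 fell, where 22.6% of all genes were called higher and 21.2% lower. The largest UV change was the fall of Tfdp2, which encodes a dimer partner of E2F factors, at -0.78. Rbl2 was at 0.69 and Rb1 at 0.36, while Rbl1 was at -0.48, E2f3 at -0.39 and Lin52 at -0.37. None was called in p53-/- cells, where 0.0953% of all genes were. The difference of the adriamycin changes was called for 6 of the 19, where 21.7% of all genes were called. It was positive for Rbl2 (1.93 ± 0.15) and Rb1 (1.57 ± 0.17) and negative for E2f2 (-0.89), Mybl2 (-0.63), Lin52 (-0.62) and E2f8 (-0.52).

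**Figure D4:**
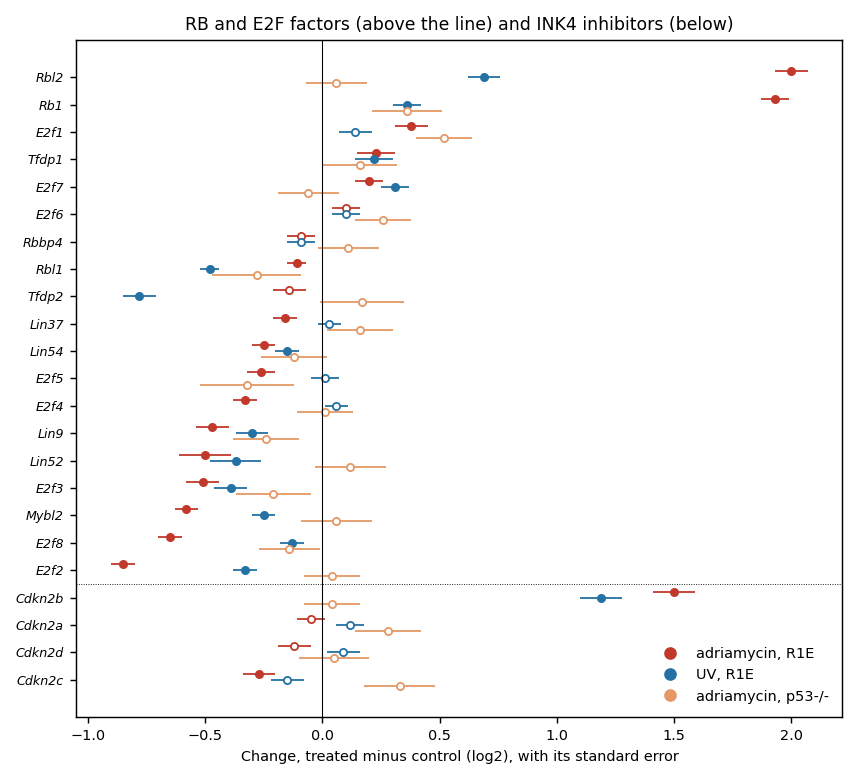
Changes (log2, with standard errors) of 19 RB, E2F and DREAM factors and 4 INK4 inhibitors after adriamycin in R1E, UV in R1E and adriamycin in p53-/- cells; filled points passed the test. Rbl2 and Rb1, at 2.00 and 1.93 after adriamycin in R1E, and Cdkn2b, at 1.5, stand to the right of the other genes.

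Of the 4 INK4 inhibitors, 1 rose and 1 fell after adriamycin in R1E, and 3 fell with each array centred on its median or with quantile normalization. Among all genes, without these alternatives, 22.1% were called higher and 25.6% lower. Cdkn2b, encoding p15, rose 2.82-fold after adriamycin and 2.28-fold after UV (limma adjusted p = 3.72e-10 and 1.21e-08), with a change of 0.04 in p53-/- cells. Cdkn2c, encoding p18, had a change of -0.27 after adriamycin. Cdkn2a and Cdkn2d were not called after either treatment, with changes between -0.12 and 0.12.

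Genes that act on the proteins of this group also changed in R1E. Among 17 genes of ubiquitin ligases for G1 regulators, 3 rose and 10 fell after adriamycin, with a median of -0.35. Over all genes 22.1% were called higher and 25.6% lower, with a median of -0.018. Fbxw7, the ligase subunit that recognises cyclin E, rose 2.37-fold after adriamycin and 1.67-fold after UV (limma adjusted p = 7.42e-12 and 9.29e-09). Rnf123, the catalytic subunit of a ligase for p27, rose 1.89-fold after adriamycin. Skp2, which recognises phosphorylated p27, had a change of -0.59 and Cks2 of -1.11, and Fzr1, the APC/C activator of G1, of -0.97. After UV 4 of the 17 rose and 8 fell, where 22.6% of all genes were called higher and 21.2% lower. Btrc, a subunit of an SCF ligase, changed most, at -0.82. The UV rises numbered 2 with each array centred on its median, beside 11 falls, and 2 with quantile normalization, beside 8 falls. In p53-/- cells none of the 17 was called, where 0.0953% of all genes were. The difference was called for Fbxw7 (1.48 ± 0.14), Rnf123, Cul4a, Skp2 and Fzr1, and for 21.7% of all genes.

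Genes of CDK activation and of the CDK phosphatases fell after adriamycin in 7 of 8 cases, where 25.6% of all genes were called lower. Pkmyt1, an inhibitory kinase of CDK1, rose 1.12-fold, a call that was lost with each array centred on its median. The CDK-activating kinase genes Cdk7, Mnat1 and Ccnh had changes of -0.61, -0.42 and -0.38 after adriamycin and of -0.35, -0.97 and -0.41 after UV. Cdc25a, the phosphatase that activates CDK2, had changes of -0.13 and 0.14. Of 6 cyclin and CDK genes of S, G2 and M, 2 rose and 3 fell after adriamycin, with Cdk1, the mitotic kinase, at -0.72, and 1 rose after UV. Of 12 growth factor and MYC input genes 4 rose and 6 fell after adriamycin, and 3 rose and 6 fell after UV. The falls included Foxo4, which encodes a FOXO factor, at -1.15 and -0.56. Over all genes 22.1% were called higher after adriamycin, and 22.6% higher and 21.2% lower after UV.

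Genes of S phase entry driven by E2F fell after adriamycin in 10 of 15 cases, with 1 rise, and a median of -0.19. Over all genes 25.6% were called lower and 22.1% higher, with a median of -0.018. Slbp, which binds histone messenger RNA, had a change of -0.70, the sliding clamp gene Pcna of -0.56, the thymidine kinase gene Tk1 of -0.51 and the licensing factor gene Cdt1 of -0.32. Rrm2, a ribonucleotide reductase subunit, rose 1.28-fold. After UV 2 of the 15 fell and 1 rose, where 21.2% of all genes were called lower and 22.6% higher. The UV counts were 7 lower and 0 higher with each array centred on its median, and 0 lower and 3 higher with quantile normalization. With quantile normalization the count after adriamycin was 7 lower and 2 higher. In p53-/- cells none was called (median 0.18), where 0.0953% of all genes were. The difference was called for Cdt1, Pcna, Tk1 and Slbp, and for 21.7% of all genes.

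Other genes with the most similar levels over the 12 R1E arrays were found for the 6 genes called after both treatments. For Cdk6 these were Ptch1, a Hedgehog receptor (Pearson r = 0.997), Dlc1 (0.996) and Gfpt2 (0.995). For Ccnd2 they were Lima1 (0.996), Ctdsp2 (0.995) and Ndrg1 (0.994), for Ccnd3 Rad21, a cohesin subunit (0.993), Epn2 and Zp3 (both 0.992), and for Cdkn1b Zfp518b and Ptpn12 (both 0.990) and Bpnt2 (0.988). Ccne1 was most like Plk1, a mitotic kinase (0.993), Wdr5 and Phf13 (both 0.991), and Ccne2 was most like Fignl1 (0.955), Mplkip (0.948) and Slc6a7 (0.944). These are descriptions over arrays that share 3 treatment groups. The search left out genes whose SD over the R1E arrays was small beside that of the member. Over the 6 p53-/- arrays r for these pairs ran from -0.88 to 0.93. For the first gene named with each member, r was 0.42 for Ptch1 with Cdk6, 0.22 for Lima1 with Ccnd2 and 0.23 for Rad21 with Ccnd3. It was 0.55 for Zfp518b with Cdkn1b, -0.88 for Plk1 with Ccne1 and 0.93 for Fignl1 with Ccne2.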

How the data were processed

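Total RNA from 18 samples was labelled for whole-transcript arrays. The authors deposited log2 intensities for each probe set. The submitters' processing notes name Affymetrix Expression Console 1.1 for R1E and RMA in Partek 6.4 for p53-/- cells, with no algorithm given for the former. As the sets were normalized apart, levels were compared only within a set.

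Of 28853 probe sets, 28815 had values on all arrays and 21780 named 1 gene (1605 several, 5430 none). Entrez IDs of 21689 were found in the RefSeq table of GRCm38.p6, and 0 symbols changed. The probe set with the highest mean per gene left 19935 genes.

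Changes were fitted in limma 3.58.1 (R 4.3.3) with lmFit and eBayes on the deposited values, in 1 fit over the 12 R1E arrays and 1 over the 6 p53-/- arrays, with Benjamini-Hochberg adjustment over all genes. The difference between lines took both changes with their moderated standard errors and Welch-Satterthwaite degrees of freedom. Scripts were tested on simulated arrays. The named genes were all 10 members, a fixed panel, up to 4 of the largest called genes per pathway list and 2 against the majority, and the 3 genes most like each member called after both treatments. In the search for like genes, those varying little over the R1E arrays beside the member were left out. Members and lists were chosen with earlier results of these data known. The replicate numbers did not pair the arrays.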

Additional observations from a re-analysis of the deposited data

Results flagged for a closer look

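By the test of the difference itself, the adriamycin change differed between R1E and p53-/- cells for 7 of the 10 genes. Among all genes 21.7% were called, 11.4% lower and 10.4% higher. Genotype, line, array set and software cannot be told apart in this difference. The differences, R1E minus p53-/- on the log2 scale, were -1.73 for Cdk6, -1.48 for Ccnd1, -1.28 for Ccnd2, -1.17 for Ccne1, -0.85 for Cdkn1b, -0.80 for Cdk2 and -0.78 for Ccnd3. For Cdkn1b the second probe set gave -0.64 and did not pass (limma estimates, adjusted p = 0.138).

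The Cdk2 level on R1E adriamycin replicate 4 lay apart from its group, at 9.26 against 9.36 to 9.38 on the other arrays, a gap of 0.846 of the group's range. It was the only such case in 30 groups of 4 arrays, where chance alone flags about 1 in 20.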

How the results depend on the processing

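Across the alternatives, 909 of 940 member values kept their direction and their side of the threshold, 9 lost the call, 3 gained it and 19 turned in sign. The 9 lost calls were those of Ccne2 after UV (-0.17 to -0.20 in the 6 cases of a left-out array that lost it, and adjusted p = 0.0538 with a trended, robust prior), of Ccne2 for adriamycin against UV without R1E adriamycin replicate 4 (adjusted p = 0.0507), and of Ccne1 after UV with quantile normalization. All sign changes were of values that had not passed the test. With quantile normalization Cdk4 was at 0.05 after adriamycin and at 0.05 after UV, and Cdk2 at 0.01 after UV. With each array centred on its median Ccnd1 was at -0.05 after UV, and Cdk4 at -0.03 for adriamycin against UV and at -0.03 for the difference between lines. With single arrays left out Cdkn1c after UV ran from -0.06 to 0.02. Cdk4 ran from -0.01 to 0.04 for adriamycin against UV, from -0.17 to 0.10 in p53-/- cells and from -0.12 to 0.15 for the difference, where Ccne2 ran from -0.26 to 0.09 and Cdkn1c from 0 to 0.30. The cause was not tested.

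In p53-/- cells the count of called genes was 19, 5 with a replicate block, and 0 to 442 with single arrays left out, the highest without untreated replicate 3, and 0 to 1 of the 10 genes were called. The count was 6 and 5 without untreated replicates 1 and 2, and 0, 0 and 1 without adriamycin replicates 1, 2 and 3. Same-numbered arrays did not deviate together in every pair (r from -0.142 to 0.191), and the replicate block changed no call among the 10 genes. Centring shifted all adriamycin changes in R1E by -0.125, so that 25.4% of the calls were higher against 46.3% without centring. That share was 35.3% against 51.6% after UV, 34.7% against 47.2% for adriamycin against UV, and 4.17% against 15.8% in p53-/- cells. With a shared spread over 18 arrays the difference called 5804 genes in place of 4331, and the same count of 7 of the 10.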
